A study of Mus musculus with 12 samples.

Results

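The transcription factors Twist1, Twist2, Snai1, Snai2, Zeb1 and Zeb2 drive epithelial-mesenchymal transition (EMT), and their loci were examined in chromatin accessibility data from fibroblasts during reprogramming towards hepatocytes. A peak belonged to the set when it overlapped the body of 1 of these 6 genes or the 25 kb on either side (GENCODE M21 annotation, mm10). This rule, which used no measured value, took 95 of the 176680 peaks in the authors' table. Zeb1 held 28 of them, Zeb2 26, Twist2 19, Snai1 14, Snai2 5 and Twist1 3. The gene bodies lie at chr12:33957671-33959829 (Twist1), chr1:91801461-91848028 (Twist2), chr2:167538195-167542814 (Snai1), chr16:14705852-14709385 (Snai2) and chr2:44983632-45117395 (Zeb2, on the minus strand), and Zeb1 lies on chromosome 18.

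The cells were primary mouse embryonic fibroblasts (MEFs) from wild-type C57BL/6N embryos at E13.5, profiled by ATAC-seq, which reads open DNA through insertions of the transposase Tn5. Both groups compared here carried lentiviral rtTA, the doxycycline-dependent activator of the transgenes, and 4in1 (LV.4TF), the hepatocyte reprogramming cassette. 4in1_GFP_OE cells also received tetO-GFP and 4in1_Prox1_OE cells tetO-FLAG-mmProx1, which encodes the mouse homeodomain factor Prox1, and all were collected on day 2 of doxycycline. The series has 12 libraries in 4 groups of 3 replicates, of which the MEF and Prox1_OE groups were not analysed here. The cells were transduced populations with no stated selection for transgene-positive cells. The study's reporting summary calls replicates in general independent biological ones, while the labels do not say what separates these libraries.

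Each value below is the authors' mean over the 3 libraries of a group, given as normalized reads in the peak. No values per library were used, so the spread between replicates and the depth per library are unknown, no difference has a replicate check, and no test was made. A difference is the log2 mean with Prox1 minus the log2 mean with GFP, and a peak is called lowered or raised when the mean with Prox1 is at least 2-fold lower or higher. Over all peaks the median difference was -0.42, so differences are also given relative to that value. Fibroblast identity was read from promoter peaks, those within 1 kb of a transcription start site. All 10 fibroblast markers had one, at log2 mean normalized reads of 7.35 to 9.45, and 0 of 5 blood and 0 of 5 hepatocyte markers did. Promoter peaks were also present at 5 of 5 epithelial markers (6.94 to 8.19) and at 3 of 5 endothelial markers (7.66 to 8.82), with none at Cdh5 and Emcn. Pecam1 had 304 normalized reads with GFP and 101 with Prox1, Tek 362 and 226, and Kdr 458 and 447. The part of other cell types in the results was not tested.

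In EMT, epithelial cells give up their junctions and polarity and take on a motile, mesenchymal state. Snai1, Snai2, Zeb1 and Zeb2 are zinc finger proteins that bind E-boxes in promoters such as that of Cdh1, which encodes E-cadherin, and repress them. Twist1 and Twist2 are basic helix-loop-helix proteins that also act through E-boxes. Fibroblasts are mesenchymal cells and commonly express these factors, whereas hepatocytes are epithelial.

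The sequences of 7 peaks are printed here, and they are not the 7 largest differences. The first 5 are the most lowered peak of each locus outside exons, Zeb1 aside. Among these 5, the windows of Twist1 (-0.86) and Snai2 (-0.92) are within 2-fold. The sixth is the Twist2 peak with the most AP-1 motifs, chosen after its values were seen, and the seventh is the most raised peak of the remaining 5 loci outside exons. All were read from the plus strand of GRCm38.p6 (mm10), 5′ to 3′. Capitals mark matches on either strand to the AP-1 motif TGANTCA, the TEAD motif GGAATG and the E-box CAGGTG, which Snail and Zeb proteins bind. Positions in kb run from the start of the gene in its own direction. The windows are chr12:33981504-33981704 (Twist1, intergenic), chr1:91858348-91858548 (Twist2, intergenic), chr2:167550437-167550637 (Snai1, intergenic), chr16:14705506-14705706 (Snai2, promoter), chr2:45126502-45126702 (Zeb2, intergenic), chr1:91816705-91816905 (Twist2, intron) and chr2:45018540-45018740 (Zeb2, intron).
Twist1 at 23.9 kb: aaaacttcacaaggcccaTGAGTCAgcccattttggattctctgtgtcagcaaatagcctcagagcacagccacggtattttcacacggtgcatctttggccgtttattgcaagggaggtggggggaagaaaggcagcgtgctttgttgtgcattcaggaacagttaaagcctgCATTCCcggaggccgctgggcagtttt
Twist2 at 57.0 kb: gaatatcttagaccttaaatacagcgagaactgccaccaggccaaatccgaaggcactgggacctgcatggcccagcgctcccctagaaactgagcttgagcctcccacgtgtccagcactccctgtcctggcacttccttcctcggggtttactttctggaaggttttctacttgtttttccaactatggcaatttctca
Snai1 at 12.3 kb: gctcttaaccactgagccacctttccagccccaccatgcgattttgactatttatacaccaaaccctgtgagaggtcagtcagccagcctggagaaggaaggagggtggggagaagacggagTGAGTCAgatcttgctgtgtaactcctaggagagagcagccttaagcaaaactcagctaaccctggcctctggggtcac
Snai2 at -0.25 kb: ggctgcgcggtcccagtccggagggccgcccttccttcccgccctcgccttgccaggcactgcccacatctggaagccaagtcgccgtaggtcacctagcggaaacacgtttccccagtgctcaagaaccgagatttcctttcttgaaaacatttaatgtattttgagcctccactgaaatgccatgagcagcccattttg
Zeb2 at -9.21 kb: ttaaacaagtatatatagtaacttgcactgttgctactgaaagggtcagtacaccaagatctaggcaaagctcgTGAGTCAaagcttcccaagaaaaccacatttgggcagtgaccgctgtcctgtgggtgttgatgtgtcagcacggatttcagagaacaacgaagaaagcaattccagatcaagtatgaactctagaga
Twist2 at 15.3 kb: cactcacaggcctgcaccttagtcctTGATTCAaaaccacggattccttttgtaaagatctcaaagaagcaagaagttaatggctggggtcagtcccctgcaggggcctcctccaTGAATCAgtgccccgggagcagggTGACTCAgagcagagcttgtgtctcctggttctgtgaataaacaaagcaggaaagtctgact
Zeb2 at 98.8 kb: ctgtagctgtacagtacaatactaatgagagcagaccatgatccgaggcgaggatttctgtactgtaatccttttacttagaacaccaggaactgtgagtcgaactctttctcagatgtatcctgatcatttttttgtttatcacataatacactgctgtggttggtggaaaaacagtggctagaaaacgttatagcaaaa

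Across the 6 loci, most peaks had a lower group mean with Prox1, about as often as peaks elsewhere. The mean was lower at 74 of the 95 peaks (77.9%), against 72.3% of all peaks, and the median difference was -0.47. At least 2-fold lower were 20 peaks (21.1%), against 24.4% of all peaks. At least 2-fold higher were 5 peaks (5.26%), against 8.33%. These shares lie near the background. In these bulk libraries, fewer cells with an open site and less opening per cell cannot be told apart. Relative to the median of all peaks the split turned round, with 7 member peaks (7.37%) at least 2-fold lower and 13 (13.7%) at least 2-fold higher, and the whole table again gave similar shares of 8.64% and 13.4%.

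The median difference was -0.30 for Twist1, -0.34 for Twist2, -0.39 for Snai1, -0.53 for Snai2, -0.71 for Zeb1 and -0.41 for Zeb2. All 6 were below 0, but relative to the median of all peaks only Snai2 (-0.11) and Zeb1 (-0.29) stayed below it, while the other 4 lay between 0.0080 and 0.11. Among the 15988 protein-coding genes with at least 5 peaks in the same kind of window, 11.3% had a lower median than Zeb1. That share was 23.1% for Snai2, 33.7% for Zeb2, 35.3% for Snai1 and 42.0% for Twist2, and Twist1 had too few peaks to be placed. Over those 15988 genes the median of the gene medians was -0.28, above all 6 medians here. Lowered were 8 of the 26 Zeb2 peaks (30.8%), 7 of the 28 of Zeb1 (25.0%), 3 of the 19 of Twist2 (15.8%) and 2 of the 14 of Snai1 (14.3%), against 24.4% of all peaks. None of the 3 Twist1 and 5 Snai2 peaks was lowered.

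**Figure D1:**
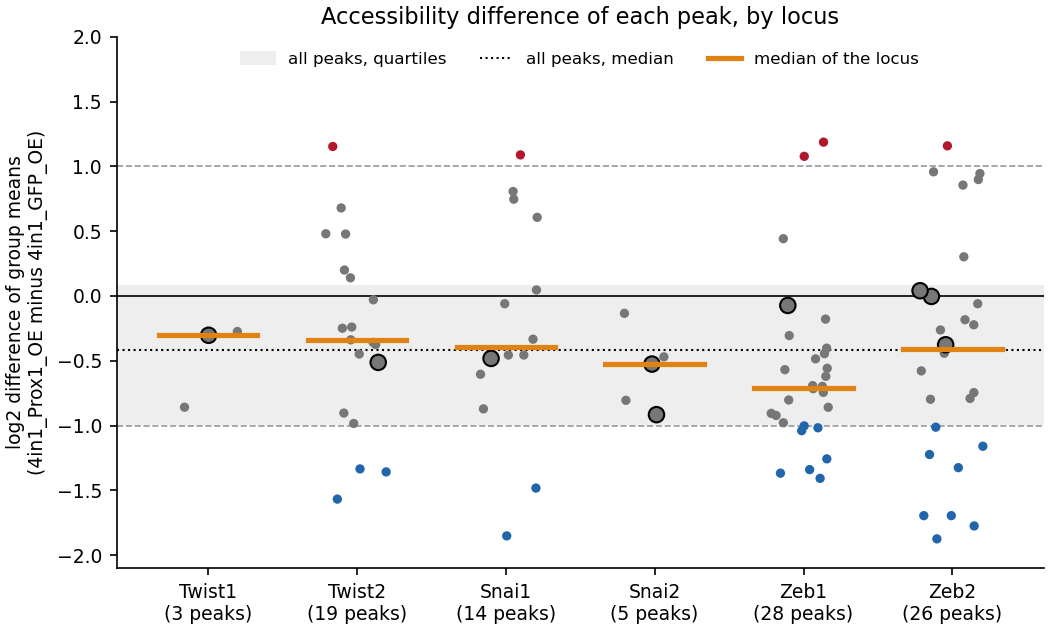
Log2 difference of the group means (4in1_Prox1_OE minus 4in1_GFP_OE) for each of the 95 peaks, by locus; orange bars are medians of the locus, outlined points promoter peaks, blue and red points peaks at least 2-fold lower or higher, the dotted line and grey band the median and quartiles of all peaks. Zeb1 has 25 of 28 peaks below 0, whereas Zeb2 spreads from -1.87 to 1.16.

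The promoters of the 6 genes were accessible in both groups and differed less than 2-fold. Among their 9 promoter peaks none was past 2-fold, where 8.26% of all promoter peaks were lower and 3.16% higher. The mean was lower with Prox1 at 8 of the 9, against 77.9% of all promoter peaks, and the median difference was -0.38 against -0.21 over all promoter peaks. Measured from the all-peak median, the 9 had a median of 0.041, against 0.20 for all promoter peaks.

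The Snail family held both the most accessible promoter peak and the one with the largest difference. Snai1, a direct repressor of E-cadherin, had 874 normalized reads with GFP and 626 with Prox1 in its promoter peak, which overlaps its UTR and is the most accessible of all 95 (difference -0.48). Snai2, which encodes Slug and is typical of mesenchyme and neural crest, had 559 reads with GFP and 296 with Prox1 at -0.25 kb (-0.92). Its weaker peak over a coding exon at 1.1 kb had 119.8 and 83.3 reads (-0.53). With Prox1, the mean of the Snai2 promoter peak was 53.0% of that with GFP, the lowest such share among the 9.

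The Twist promoters also had lower means with Prox1, and 3 of the 4 Zeb promoter peaks hardly differed. Twist1, needed for cranial mesenchyme, had 659.8 reads with GFP and 535 with Prox1 in its promoter peak (-0.30). Twist2, known from dermal fibroblasts, had 569 and 399 reads (-0.51). Both means were thus lower with Prox1, and both differences lay below the median of all promoter peaks (-0.21). Against the median of all peaks (-0.42), the difference of Twist1 lay above and that of Twist2 below.

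Zeb1, the homeodomain zinc finger repressor that micro-RNAs of the miR-200 family hold down in epithelia, had 359 reads with GFP and 341 with Prox1 (-0.07). Start sites of Gm10125 and Gm2238 lie within the same 1 kb, so that peak is not Zeb1's alone. Zeb2 has start sites spread over several kb. Its most upstream promoter peak at 0.17 kb had 328 and 337 reads (0.04), the peak at 7.23 kb 378 and 377 reads (-0.0035), and the peak at 6.22 kb 227 and 175 reads (-0.38). The last 2 also lie at start sites of the antisense gene Zeb2os and of Gm27761.

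**Figure D2:**
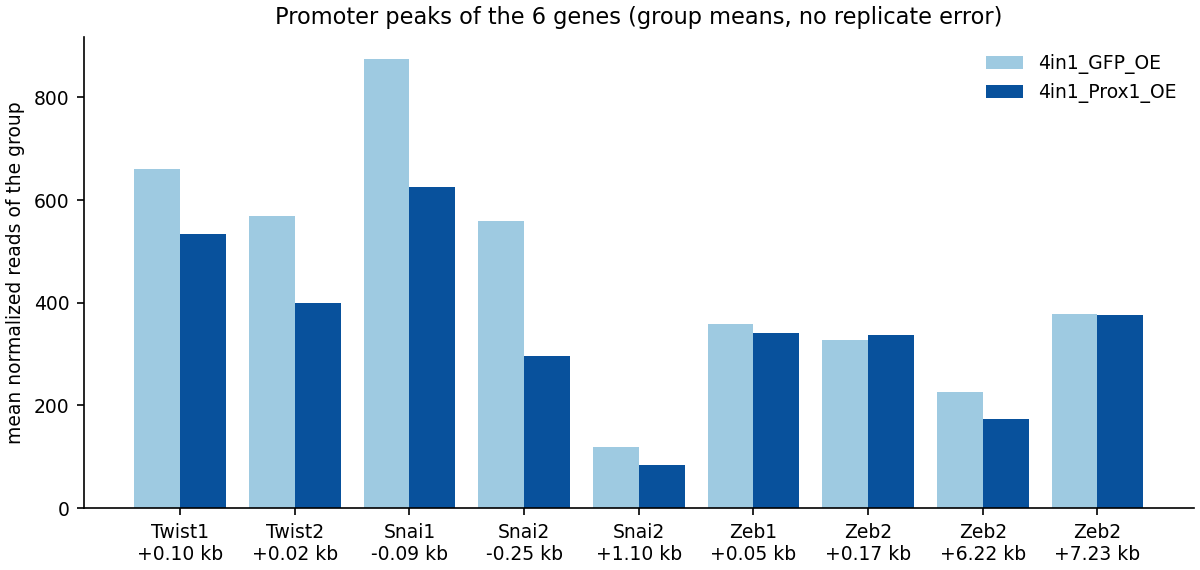
Mean normalized reads of each group in the 9 promoter peaks of the 6 genes, with the distance from the start of the gene under each name; bars are the authors' group means and carry no replicate error. Snai2 at -0.25 kb shows the widest gap (559 and 296 reads) and Zeb2 at 7.23 kb the narrowest (378 and 377).

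All 20 lowered peaks lay more than 1 kb from any annotated start site, as did 95.7% of the lowered peaks of the table. Of the 82 member peaks that far from a start site, 24.4% were lowered, against 26.7% of all such peaks. In the Snai1 locus the largest difference was at 12.3 kb, in an intergenic window whose sequence is printed above, with 315 reads with GFP and 87.4 with Prox1 (-1.85). The mean with Prox1 was 27.7% of that with GFP, next to a promoter at 71.6%. A pair of neighbours 0.729 kb apart went in opposite directions: the peak at -9.72 kb had 140.9 reads with GFP and 50.4 with Prox1 (-1.48), and the peak at -8.99 kb had 40.7 and 86.5 (1.09). Further downstream, 4 peaks lay in introns of the neighbouring gene Gm11476, all within 2-fold. Those at 21.5 and 25.6 kb were higher with Prox1 (0.75 and 0.81), and those at 24.1 and 27.7 kb lower (-0.46 and -0.33). Below 0 were 9 of the 14 Snai1 peaks (64.3%), near the 72.3% of all peaks, and all 5 peaks of Snai2, which were within 2-fold.

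Of the 3 lowered Twist2 peaks, 2 were strong distal sites and the third, at -23.2 kb, a weak one (83.1 and 32.5 reads, -1.36). The intronic peak at 15.3 kb had 726 reads with GFP and 288 with Prox1 (-1.33), which made it the most accessible peak of the locus with GFP, above the promoter, and a weaker one than the promoter with Prox1. The intergenic peak at 57.0 kb had 338 and 114 reads (-1.57). Of the 9 peaks between these sites, 5 were below 0. They ran from 96.1 reads with GFP and 48.6 with Prox1 at 43.3 kb (-0.98) to 36.1 and 80.2 at 44.5 kb (1.15), the only raised call of the locus. Of the 3 Twist1 peaks, the promoter and an intergenic peak at 9.56 kb (-0.27) lay close together in difference, and the intergenic peak at 23.9 kb was lower, with 204 reads with GFP and 113 with Prox1 (-0.86).

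The Zeb loci, long genes with most of their peaks in introns, held 54 of the 95 member peaks and 15 of the 20 lowered calls (27.8% of their peaks, against 24.4% of all peaks). In Zeb1, 25 of 28 peaks were below 0 (89.3%, against 72.3% of all peaks), and the middle of the distribution ran from -0.98 to -0.43. None was at least 2-fold below the median of all peaks, against 8.64% of all peaks, and the lowest lay at -0.99 relative to it. Summed over the locus, 3333 normalized reads with GFP stood against 2187 with Prox1. Its largest difference was in the intron at 18.3 kb, with 216 reads with GFP and 81.5 with Prox1 (-1.41). Its most accessible distal peak, at 148.7 kb, had 361 and 220.0 reads (-0.72). The peaks at 13.8 kb (44.5 and 93.8 reads, 1.08) and 193.3 kb (37.1 and 84.4 reads, 1.19) were the exceptions past 2-fold, and both had few reads with GFP.

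Of the 26 Zeb2 peaks, 19 were below 0 (73.1%, against 72.3% of all peaks). At least 2-fold lower were 8 (30.8%, against 24.4%), and 4 of those were also at least 2-fold below the median of all peaks (15.4%, against 8.64%). The largest was upstream at -9.21 kb, with 137 reads with GFP and 37.5 with Prox1 (-1.87), where the printed window holds an AP-1 motif. A pair of intronic peaks 1.04 kb apart came next, with 204 and 59.7 reads at 61.4 kb (-1.77) and 251 and 77.6 reads at 60.3 kb (-1.69).

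Beyond the 3′ end of Zeb2 lay 3 lowered peaks in a row, all intergenic. They had 401 reads with GFP and 124 with Prox1 at 140.1 kb (-1.69), 392 and 168 at 147.9 kb (-1.22), and 229 and 102 at 156.0 kb (-1.16). With GFP the first of these was the most accessible peak of the locus, above the promoters, and with Prox1 it was at 30.9% of that mean. In the opposite direction, the intronic peak at 98.8 kb had 52.6 reads with GFP and 117 with Prox1 (1.16), 1.09 kb from a peak at 97.7 kb with 292 and 116 reads (-1.32). The 2 sites thus had unlike means with GFP and nearly the same mean with Prox1. Over all 89 pairs of neighbouring member peaks, 35 differed in sign (39.3%), 4 were past 2-fold in opposite directions (4.49%) and 4 were both lowered (4.49%). Among all neighbouring peaks no farther apart than these, the shares were 36.2%, 3.14% and 7.69%.

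**Figure D3:**
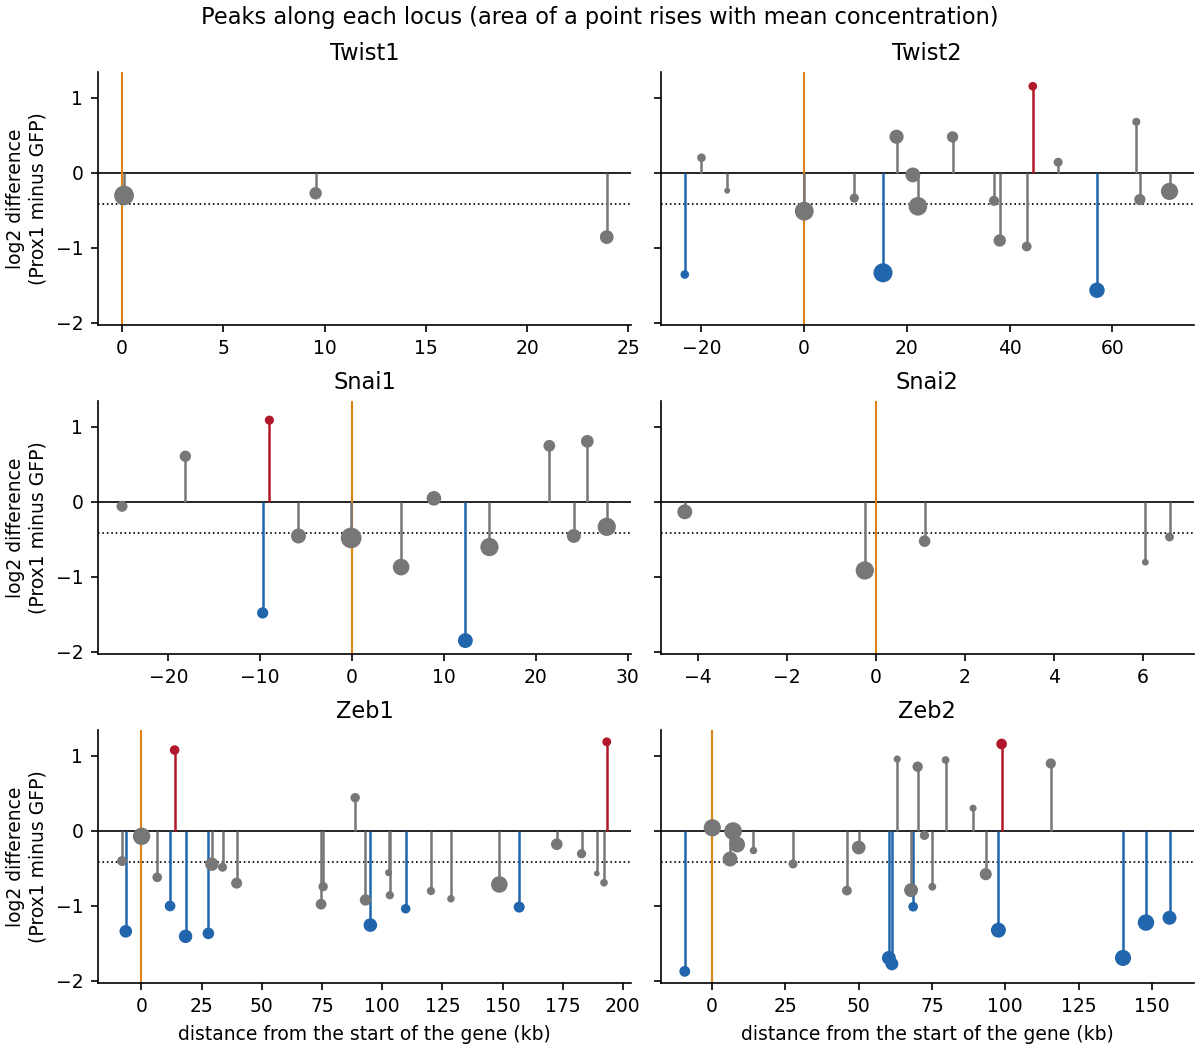
Log2 difference of each peak (4in1_Prox1_OE minus 4in1_GFP_OE) against its distance in kb from the start of the gene, in the gene's direction, 1 panel per locus; the orange line is the start, the dotted line the median of all peaks, blue and red mark peaks at least 2-fold lower or higher, and the area of a point grows with mean concentration. The promoter peaks stay within 2-fold, and Zeb2 ends in 3 lowered peaks at 140.1, 147.9 and 156.0 kb.

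By position, 11 of the 59 peaks in gene bodies (18.6%) were lowered, 4 of the 13 upstream (30.8%) and 5 of the 23 downstream (21.7%), each near the 24.4% of all peaks. Summed over a locus, normalized reads with GFP and with Prox1 were 995 and 755 for Twist1, 3789.7 and 2690.2 for Twist2, and 3685 and 2772 for Snai1. They were 1015 and 655 for Snai2 and 4312 and 2946 for Zeb2. On the log2 scale these sums differed by -0.40, -0.49, -0.41, -0.63 and -0.55 in this order and by -0.61 for Zeb1, against -0.41 over all peaks. The sums of Snai2 and Zeb1 were the lowest relative to GFP. That of Snai2 rests on its promoter peak, since its 3 peaks with no start site within 1 kb gave -0.29.

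Direction went with the strength of a peak in the 6 loci, as it did over all peaks. Strength here is the mean over both groups, so it is not independent of the difference. The median log2 mean concentration of all peaks was 6.71. All 5 raised member peaks lay below it, with GFP means of 36.1 to 52.6 reads, and 12 of the 20 lowered ones lay at or above it. Of the 42 member peaks at or above that level, 12 (28.6%) were lowered and none raised, and of the 53 below it, 8 (15.1%) were lowered and 5 (9.43%) raised. Over the whole table, 26.5% of peaks in the upper part were lowered and 1.77% raised, and 22.3% and 14.9% in the lower part. The raised calls of the 6 loci thus rest on few reads, whose error is unknown here.

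**Figure D4:**
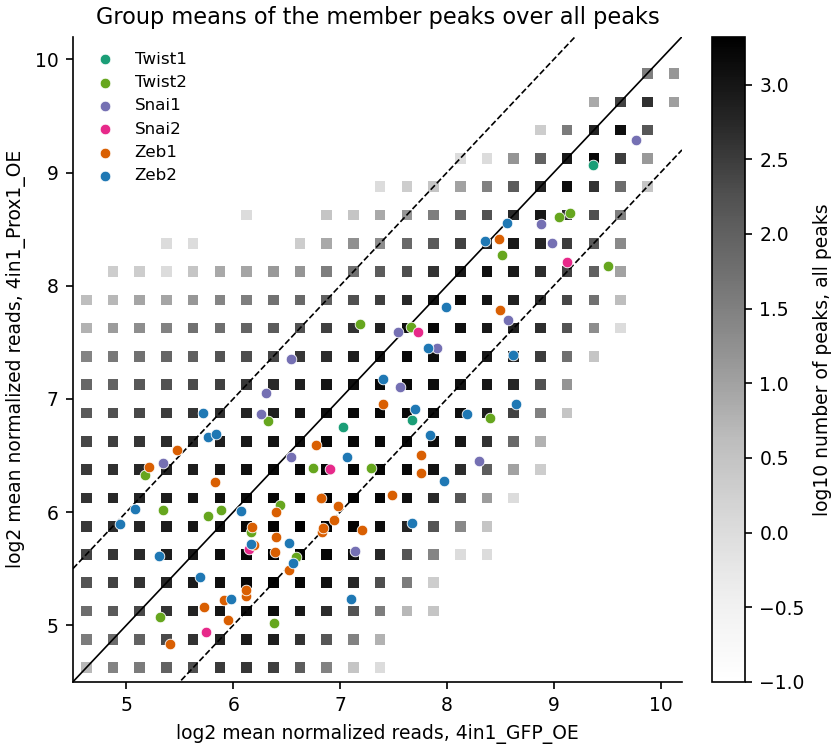
Log2 mean normalized reads of the 95 member peaks with GFP (x axis) and with Prox1 (y axis), coloured by gene, over all peaks in grey squares shaded by their number on a log10 scale; the solid line is equality and the dashed lines a 2-fold difference. Member peaks lie mostly below equality, and the 5 above the upper dashed line have low means.

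The lowered peaks often held an AP-1 motif, the site of Fos and Jun factors. It was present in 12 of the 20 lowered member peaks (60.0%) in 2 of the 5 raised ones (40.0%) and in 11 of the 70 within 2-fold (15.7%). Over the table it was present in 46.9% of the lowered peaks, in 20.04% of the raised peaks and in 28.8% of all peaks, and among the 95 members in 25 (26.3%). The median difference of members with the motif was -0.98 and of those without it -0.37, against -0.82 and -0.29 over all peaks. The lowered members had a median GC content of 46.3% and those within 2-fold one of 52.2%, and the part of base composition was not tested. The printed Twist2 window at 15.3 kb holds 3 such motifs, and the printed windows of Twist1, Snai1 and Zeb2 at -9.21 kb hold 1 each. By locus, the motif was in 10 Zeb1 peaks, 8 Zeb2 peaks, 4 Twist2 peaks, 2 Snai1 peaks, 1 Twist1 peak and no Snai2 peak.

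The E-box CAGGTG, which Snail and Zeb proteins bind, was in 14 member peaks (14.7%, against 10.97% of all peaks), of which 1 was among the 20 lowered and 3 among the 5 raised. Over the table it was in 5.63% of lowered and 17.6% of raised peaks. The Snai1 and Zeb1 promoter peaks each held it. The broader E-box CANNTG, of which CAGGTG is a special case, was in 72.6% of members and 68.9% of all peaks. The RUNX motif TGTGGT was in 13.7% of members (18.5% of all peaks), in 6 of the 20 lowered (30.0%), 1 of the 5 raised and 6 of the 70 within 2-fold (8.57%), against 20.2% of all lowered peaks. The TEAD motif was in 17.9% of members (20.1% of all peaks). It was in 2 of the 20 lowered (10.0%, against 26.7% of all lowered peaks) and in 15 of the 70 within 2-fold (21.4%). The median difference of members with it was -0.72 and of those without it -0.44, against -0.64 and -0.37 over all peaks. The CTCF core AGGGGGC was in 4.21% of members (4.78% of all peaks). A consensus for the Prox1 motif, with at most 1 mismatch, had no match in the 95 windows and 0.304% of all windows held one. A match is a string of letters and does not show binding.

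Genes that act with these factors in EMT were read at their most accessible promoter peak. Over all promoter peaks of the table, 77.9% were below 0, 8.26% at least 2-fold lower and 3.16% at least 2-fold higher, with a median of -0.21. Of 16 epithelial genes, which the factors repress, 15 had a promoter peak, with a median difference of 0.13, and 6 were below 0, none was 2-fold lower and 2 were 2-fold higher. Over their whole windows the median was below 0, at -0.28, with 68.0% of 175 peaks below 0. Epcam, an epithelial adhesion molecule, had 194 reads with GFP and 389 with Prox1 (1.00), and the polarity gene Crb3 had 67.4 and 135 (1.00). Both sit at the edge of the call. Cdh1, encoding E-cadherin and the best known target of the 6 factors, had 186 and 203 reads (0.13), while Krt8 (-0.76) and Cldn4 (-0.75) were the lowest of the list.

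All 16 mesenchymal genes had a promoter peak and all had a lower mean with Prox1, with a median of -0.52, against the 77.9% and -0.21 of all promoter peaks. The 2 past 2-fold, against a background of 8.26%, were Prrx1, a mesenchymal homeobox factor (317 and 131 reads, -1.27), and Lox, which crosslinks collagen (548 and 233 reads, -1.23), and the least lowered were Tcf4 (-0.13) and Col3a1 (-0.23). The 9 promoter peaks of the EMT factors, with their median of -0.38, lay between these lists. Over whole windows, 33.7% of 285 peaks at mesenchymal genes were lowered and 3.51% raised, 21.1% and 6.86% of 175 at epithelial genes, and 24.4% and 8.33% of all peaks. Measured from the median of all peaks, the median promoter difference was 0.55 for the epithelial list and -0.10 for the mesenchymal list. All promoter peaks had a median of 0.20 on that scale. The lists also differed in strength, with median log2 mean concentrations of 7.49 (epithelial) and 8.65 (mesenchymal), and the part of strength was not tested.

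**Figure D5:**
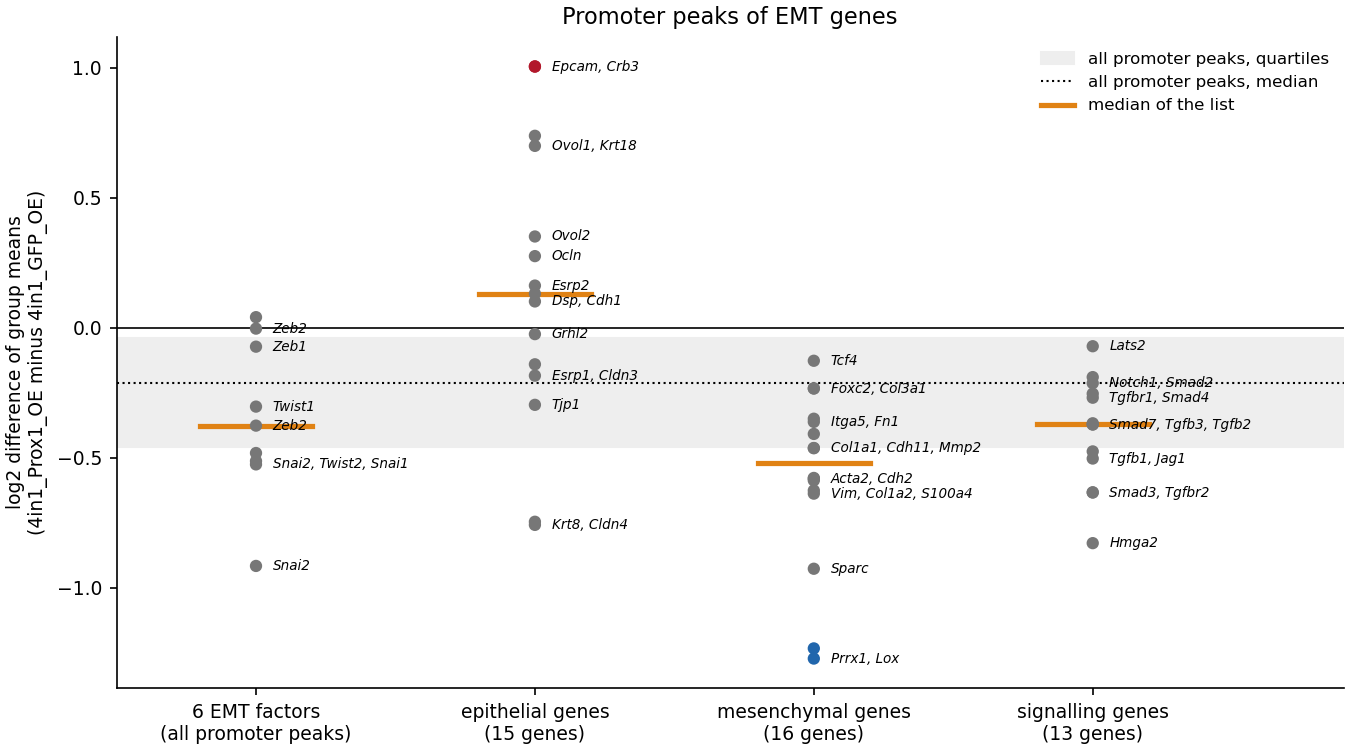
Log2 difference of the group means at promoter peaks of the 6 EMT factors (all 9 peaks) and at the most accessible promoter peak of each epithelial, mesenchymal and signalling gene of EMT; orange bars are medians, the dotted line and grey band the median and quartiles of all promoter peaks. The medians are -0.38 for the factors, 0.13 for epithelial, -0.52 for mesenchymal and -0.37 for signalling genes.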

How the data were processed

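ATAC-seq libraries of 4in1_GFP_OE and 4in1_Prox1_OE MEFs (3 each) were compared through a table of the authors. Per the submitters' processing notes and the study's methods, reads were trimmed (Trimmomatic 0.38), aligned to mm10 (Bowtie2 2.3.4.3), recalibrated for Tn5 bias and filtered (SAMtools 1.10, Picard 2.18.16, bedtools 2.27.1). Peaks were called with MACS2 2.1.2, although the reporting summary names Genrich, and compared with DiffBind 3.4.11. For this step the methods refer to the DiffBind vignette of that version and name no normalization setting. The authors deposited log2 mean normalized reads per peak, over both groups and for each group. Had the setting scaled to whole libraries, any change in how many reads fall in peaks would enter every value, and for this reason 0 was also placed at the median of all peaks, at the median of promoter peaks and at equal totals. The authors' own comparison columns (fold change, p-value and FDR) and 2 lists of peaks were not used, so no test was made.

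Log2 group means were subtracted, and back-transformed for printing. Windows, start sites (basic set, 1 kb) and exons came from GENCODE M21 and sequence from GRCm38.p6. Motifs were searched on both strands. Steps were tested on simulated data with scipy 1.17.1, numpy 2.4.6 and pandas 2.3.3 under Python 3.11.15, and plots were made with matplotlib 3.10.9. Peaks were named by rule: all promoter peaks, the most accessible peak of a locus, its lowest and highest difference among peaks at or above the median concentration, and all peaks at least 2-fold higher, and 4 genes per list with the most extreme promoter differences. The other peaks described, the additional genes and the second Twist2 sequence were chosen after their values were seen. The members and lists were chosen with earlier results of these data known.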

Additional observations from a re-analysis of the deposited data

How the results depend on the processing

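The set's median stayed below 0 wherever 0 was placed, while raised calls outnumbered lowered ones after centring on the median of all peaks and with equal totals. Centred on the median of promoter peaks they did not, with 15.8% lowered, 10.5% raised and 69.5% below 0. The share of member peaks at least 2-fold lower was 21.1% as deposited and 7.37% both when centred on the median of all peaks and with equal totals, and the share at least 2-fold higher went from 5.26% to 13.7% in both. The median difference went from -0.47 to -0.052 (median), -0.057 (totals) and -0.26 (median of promoter peaks), and the share below 0 from 77.9% to 55.8% (median and totals). Centred on the median, the medians of Twist1 (0.11), Twist2 (0.079), Snai1 (0.023) and Zeb2 (0.0080) changed sign. With a fold of 1.5 the shares were 42.1% lower and 13.7% higher, which follows from the looser threshold. Without the Zeb1 and Zeb2 loci, an alternative chosen after seeing the data, 12.2% were lower. Of 50 alternative values, 32 stayed within the interval of the deposited one, among them all those for narrower windows, for leaving out the lowest 25% of peaks or peaks at other genes' start sites, and for merging close peaks. These intervals treat peaks as independent, which peaks of a locus are not, and cover no replicate error. Narrower windows and filters also reuse part of the same peaks, so staying within the interval is no independent check. No paired analysis was possible because the values used are group means without replicates, and for the same reason leaving out each replicate was not run. All 5 raised calls lay below the median concentration, as did 8 of the 20 lowered ones, and the depth behind them is unknown.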

Other observations

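Genes of signals that act on the EMT factors were read at their most accessible promoter peak. Of 14 genes of TGF-beta, Notch and related signalling, 13 had a promoter peak, all 13 had a lower mean with Prox1 and none was past 2-fold, with a median difference of -0.37 (0.046 relative to the median of all peaks). Over all promoter peaks, 77.9% had a lower mean and the median difference was -0.21 (0.20 relative to the median of all peaks). The lowest were Hmga2, a chromatin protein that activates Snai1 and Twist1 (741 reads with GFP and 417 with Prox1, -0.83), and Smad3, which carries the TGF-beta signal (869 and 559.9 reads, -0.63), and the least lowered were the Hippo kinase gene Lats2 (-0.07) and Smad2 (-0.19). Relative to the median of all peaks, Lats2 (0.35) and Smad2 (0.23) were above it and Hmga2 (-0.41) and Smad3 (-0.22) below it.

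Of 10 hepatocyte transcription factors, 8 had a promoter peak, with a median difference of -0.03. Foxa2, a pioneer factor of liver and gut, had 133 reads with GFP and 179.6 with Prox1 (0.44), and Onecut1 had 347 and 393 (0.18). The bile acid receptor gene Nr1h4 was the only 1 past 2-fold, against 8.26% of all promoter peaks lowered and 3.16% raised, with 137 and 65.1 reads (-1.07), and Cebpa followed at -0.35. Both groups carry the 4in1 cassette, and reads of a transgene cannot be told apart from those of the same exons in the genome.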
